A study of Mus musculus with 4 samples.

Results

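Lines of mouse embryonic fibroblasts numbered 2 were compared with lines numbered 1, with genotype held as a block. Members were chosen by the number in the sample titles, which placed 2 of the 4 arrays of the study in each group and left none out. Lines numbered 1 were 1 wild-type line and 1 RBP2-null line, and lines numbered 2 were the same pair of genotypes again. The null lines lacked RBP2 (retinoblastoma binding protein 2, gene symbol Kdm5a), a demethylase of lysine 4 of histone H3. All lines were primary fibroblasts, grown directly from embryos, taken at passage 3 and described in the labels as independent, with 1 Affymetrix array of total RNA per line. The comparison asks which functions differ in the same direction in both genotypes as differences of culture or line would, whatever the RBP2 genotype. Nothing in the labels says whether lines of the same number share a litter, a day of harvest or a hybridization.

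Embryonic fibroblasts in primary culture are a mixed mesenchymal population. Their state moves between a contractile form, with actin stress fibres and high activity of the MRTF, SRF and YAP transcriptional regulators, and a less contractile form. Serum and fresh medium, stretch or handling switch on immediate early genes such as Fos and Egr1 within minutes to hours, and crowding or serum withdrawal raises growth-arrest genes such as Gas1. Matrix genes, insulin-like growth factor binding proteins and imprinted growth genes also vary with the density and age of a culture.

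Deposited signal was not on a common level. Its trimmed mean was 61.7 and 101 on the wild-type arrays 1 and 2, and 77.9 and 152 on the RBP2-null arrays 1 and 2, so the arrays of lines 2 were brighter by 1.63 and 1.94 times. The analysis names in the labels end in 5 and 6 for lines 1 and in 7 and 8 for lines 2, so array brightness, the order of those names and line number cannot be told apart. The 3' to 5' signal ratio of the Actb control probe sets was 1.02, 1.09, 1.10 and 1.14 and that of Gapdh 0.658, 0.712, 0.674 and 0.698 on wild-type arrays 1 and 2 and RBP2-null arrays 1 and 2. Both ratios, which rise as RNA degrades, were slightly higher in lines 2 within each genotype, and their part in the results was not tested. After quantile normalization the wild-type line 1 array stood apart, with a correlation of 0.923 to 0.925 to the others across probe sets, against 0.946 to 0.963 among the other three. Levels on each array are therefore given for the main genes below. A difference within RBP2-null uses that array only through the normalization and the filter, which were made over all 4 arrays. Markers of fibroblasts were present throughout, with 10 of 10 measured and a summed normalized signal of 40660, 45490, 42190 and 45840. From here on, 4 values in a row refer to wild-type lines 1 and 2 and then RBP2-null lines 1 and 2, and a level is the normalized log2(signal + 9), whose floor is 3.17.

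Transcripts of the sex chromosomes served as a check on the lines. Xist, the RNA that coats the inactive X chromosome, had levels of 10.68, 6.21, 5.88 and 10.24, and the Y-linked gene Eif2s3y had levels of 3.28, 7.07, 7.23 and 3.62. High Xist went with low Eif2s3y on wild-type line 1 and RBP2-null line 2, and the reverse held on the other arrays, so this difference ran in opposite directions in the 2 genotypes and was balanced over line number. The brightest probe set of Kdm5a had levels of 6.72, 7.65, 6.40 and 6.49 and did not pass the test between line numbers (adjusted p = 0.545 in limma). The sources used here do not give which probe sets lie in the deleted part of Kdm5a, so these levels do not check the genotype.

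Of 27022 probe sets kept after a filter on low signal, 547 (2.02%) differed between line numbers at an adjusted p of 0.05 in limma. In lines 2, 326 (1.21%) were higher and 221 (0.818%) lower, which named 234 genes with a higher and 167 with a lower probe set, 1 of them in both. Of the 547, 543 had the same sign in both genotypes. A call needs a large mean over both genotypes, which itself favours one sign, so this count adds no separate support. Without any test, 200 probe sets (0.74%) were at least 2-fold higher in lines 2 in both genotypes and 120 (0.444%) at least 2-fold lower in both, against 169 (0.625%) that moved at least 2-fold in opposite directions. Both arrays of lines 2 lay above both arrays of lines 1 for 20.3% of probe sets and below for 20.7%. With 1 array per line, each probe set has 1 residual degree of freedom, against 64.6 that limma borrows from probe sets of like brightness, so a call rests mainly on the size of a difference relative to what is usual at that brightness. With a prior variance that did not depend on brightness no probe set passed (2013 had an unadjusted p under 0.05), and without the genotype block 1 did, that of Fos. The count was 89 with no filter on low signal and 187 with cyclic loess. With 1 array left out and no block it was 209 without wild-type line 1, 1223 without RBP2-null line 1, and 1, that of Fos, without either array of lines 2. Directions are relative to the normalization: centring each array on its median, which left a common shift of 0.193, gave 599 higher and 63 lower, and unscaled signal, with a shift of 0.734, gave 11920 and 26. Of the lower named probe sets 21 of 42 still passed with centring and 18 of 43 unscaled. An exact two-sided permutation test on so few lines reaches no p under 0.333, or under 0.5 when lines are exchanged within genotypes. The limma p-values with the block set a mean difference against the disagreement of the 2 within-genotype differences, pooled over probe sets. They hold for these lines only and do not measure how far lines of one genotype vary.

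The 2 within-genotype differences shared little among dim probe sets and more among bright ones. Across the kept probe sets their Pearson correlation was 0.109, which describes probe sets that share arrays and are not independent. In the dimmest 20% it was 0.0497, and there 162 probe sets moved at least 2-fold the same way while 108 moved in opposite directions. In the brightest 20% it was 0.418, with 34 the same way and 2 in opposite directions. Those bright probe sets held 305 of the 547 calls.

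**Figure D1:**
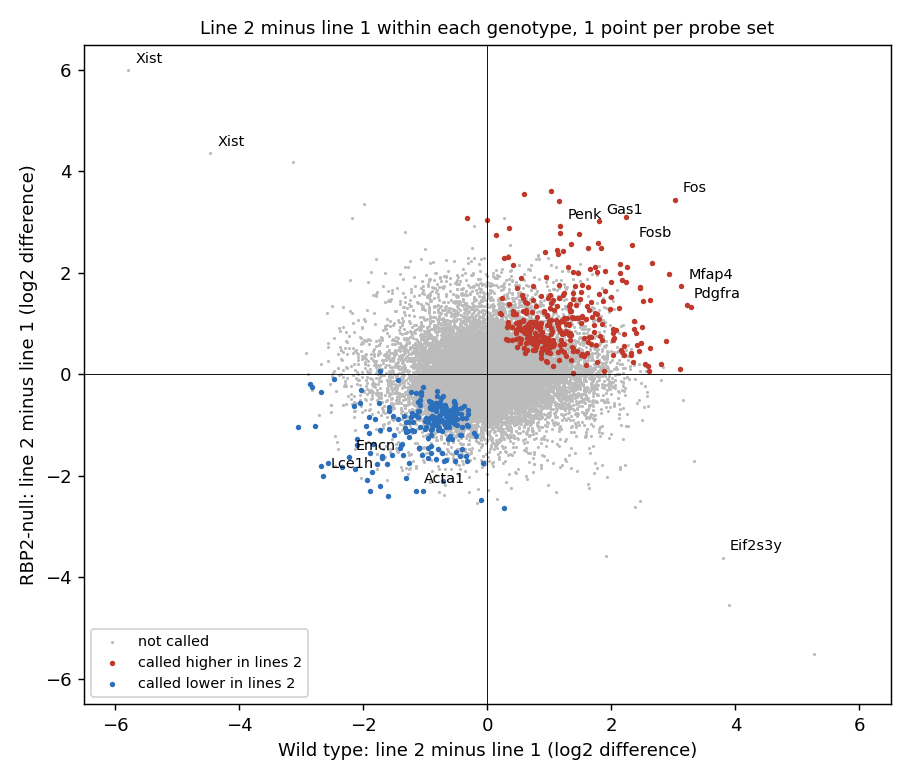
Each point is 1 of 27022 probe sets, placed by its log2 difference between line 2 and line 1 in wild type (horizontal) and in RBP2-null (vertical), with probe sets called at an adjusted p of 0.05 in colour. Fos, Fosb, Gas1 and Pdgfra lie far to the upper right and Lce1h, Acta1 and Emcn to the lower left, while Xist and Eif2s3y lie on the opposite diagonal.

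Immediate early genes gave the largest difference shared by both genotypes. Fos, a subunit of the AP-1 transcription factor, had levels of 7.99, 11.02, 8.04 and 11.49. Both lines 1 were near 8 and both lines 2 above 11, and the difference of 3.24 ± 0.18 (SE), a 9.43-fold higher signal in lines 2, passed the test (adjusted p = 1.35e-22). Its relative Fosb had levels of 5.47, 7.80, 6.01 and 8.57, again with no overlap, and was higher by 2.44 ± 0.28 (adjusted p = 3.7e-09). The orphan nuclear receptor Nr4a1 had levels of 8.36, 9.75, 8.40 and 9.89, a difference of 1.44 ± 0.19 (adjusted p = 2.75e-07) that was almost the same in wild type (1.39) and in RBP2-null (1.49). Nr4a2 was higher by 1.41 on its brightest probe set, and 3 of its 4 kept probe sets were higher. Further called members, given after their values were seen, were Jun, the partner of Fos in AP-1, with levels of 8.20, 9.73, 8.50 and 9.64, Klf4 with a difference of 1.21 and Egr1 with 0.69. Egr1 was the least changed of these, with levels of 10.62, 11.11, 10.27 and 11.16.

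A pair of early genes ran the other way. Dusp5, a nuclear phosphatase that inactivates ERK, had levels of 8.94, 7.40, 8.98 and 7.39, and was 2.96-fold lower in lines 2, by −1.56 ± 0.22 on the log2 scale (adjusted p = 1.25e-06). Phlda1, chosen after its values were seen, differed by −0.79. Spry2, an inhibitor of receptor tyrosine kinase signalling from another list, had levels of 9.85, 9.52, 10.39 and 9.40 and was also lower, by −0.66 ± 0.18 (adjusted p = 0.0293). Over the whole list 7 of 32 measured genes were called higher and 2 lower, where 1.14% and 0.93% of all genes were called on their brightest probe set. Higher in both genotypes were 18 of 32 (56.2%, against 26.7% of all genes), and the list's median difference was 0.25 in wild type and 0.27 in RBP2-null, against −0.02 and −0.01 over all genes. Members that did not pass included Junb with levels of 8.11, 8.57, 8.33 and 8.76, Myc with 8.70, 8.33, 8.96 and 8.34, and Ccn1 with 11.44, 11.27, 11.36 and 11.44.

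Contractile genes, targets of SRF with its MRTF coactivators, gave calls in lines 2 that were all lower. Acta1, skeletal muscle actin, which fibroblasts express when contractile, had levels of 9.39, 8.25, 10.16 and 7.87. Both lines 2 lay below both lines 1, and the difference of −1.72 ± 0.21 (adjusted p = 2.7e-08) made the signal 3.28-fold lower. Calponin (Cnn1), an actin-binding protein of smooth muscle, had levels of 10.10, 9.38, 10.29 and 9.37 and differed by −0.82 ± 0.18 (adjusted p = 0.00267). Transgelin (Tagln), which also binds actin, had levels of 12.64, 12.10, 12.53 and 12.02. Its difference was only −0.53 ± 0.13 (adjusted p = 0.0176) but was nearly equal in wild type (−0.54) and RBP2-null (−0.52). Smooth muscle gamma actin (Actg2) differed by −0.70, and the LIM-domain proteins Fhl1 and Fhl2, the latter named after its values were seen, by −0.57 and −0.66. The other kept probe set of Fhl1 differed by 0.19.

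Across the contractile list 5 of 36 genes were called lower and none higher in limma, where 0.93% of all genes were called lower. At an unadjusted p under 0.05 there were 13 lower and 0 higher, against 5.47% and 6.31% of all genes. The calls depended on scaling and filter: Cnn1, Actg2, Fhl1 and Tagln did not pass with arrays centred on their medians or unscaled, which keep a common shift toward lines 2 (adjusted p = 0.52 to 0.988), nor with no filter (0.0664 to 0.351). Relative to that shift they differed by −0.74 to −0.63. Acta1, which belongs to the skeletal muscle list, passed under each of these. Lower in both genotypes were 24 of 36 (66.7%, against 29.7% of all genes) and higher in both 2, and the median difference was −0.36 in wild type and −0.26 in RBP2-null. The median of the fitted difference, −0.26, was short of the 0.3 set as the size for describing a list as shifted. Just outside the threshold were Myl9, a regulatory myosin light chain, with levels of 11.56, 11.07, 11.56 and 11.05, and Itga5, the fibronectin receptor subunit, with a difference of −0.67 ± 0.20 (adjusted p = 0.0542). Smooth muscle actin (Acta2) had levels of 13.25, 13.06, 13.25 and 13.06 and Actg1, cytoplasmic actin, 13.20, 13.22, 13.28 and 13.16, and neither passed. The fixed markers of smooth muscle and myofibroblasts, among them Tagln and Cnn1, summed to a normalized signal of 17300, 13670, 17010 and 13440, and all 5 were measured. On these bulk arrays fewer contractile cells and less RNA per cell cannot be told apart.

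Targets of YAP and TEAD, the regulators of genes that respond to stretch and spreading, were also lower where they passed. Ankrd1, a nuclear ankyrin-repeat protein and a widely used YAP readout, had levels of 9.72, 7.98, 9.23 and 8.13, with both lines 2 below both lines 1. It was 2.67-fold lower in lines 2, by −1.42 ± 0.21 (adjusted p = 2.32e-06), on both of its probe sets. Ccn2, the matricellular growth factor CTGF, had levels of 12.79, 12.16, 12.69 and 11.97 and differed by −0.67 ± 0.13 (adjusted p = 0.000807). The receptor tyrosine kinase Axl differed by −0.54, and by −0.10 on its other kept probe set. These 3 were the calls among 20 measured targets, of which 11 (55%, against 29.7% of all genes) were lower in both genotypes and 2 higher in both, with 0.93% of all genes called lower. Ankrd1 passed in 8 of 8 settings of the signal and filter, Ccn2 in 5 and Axl in 1, with adjusted p up to 0.82 for Axl when arrays were centred. Integrin and adhesion genes gave calls in both directions, 1 higher and 2 lower of 46, against 1.14% and 0.93% of all genes. Mcam, a cell adhesion molecule of vessel-associated cells, had levels of 8.67, 7.32, 8.72 and 7.14 and was lower by −1.47 ± 0.23 (adjusted p = 1.45e-05). Cd44, the hyaluronan receptor, differed by −0.55, and Sdc2 was higher by 0.77, with 2 of its 4 kept probe sets higher. Of the 46, 14 (30.4%, against 26.7% of all genes) were higher in both genotypes and 10 (21.7%, against 29.7%) lower in both.

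**Figure D2:**
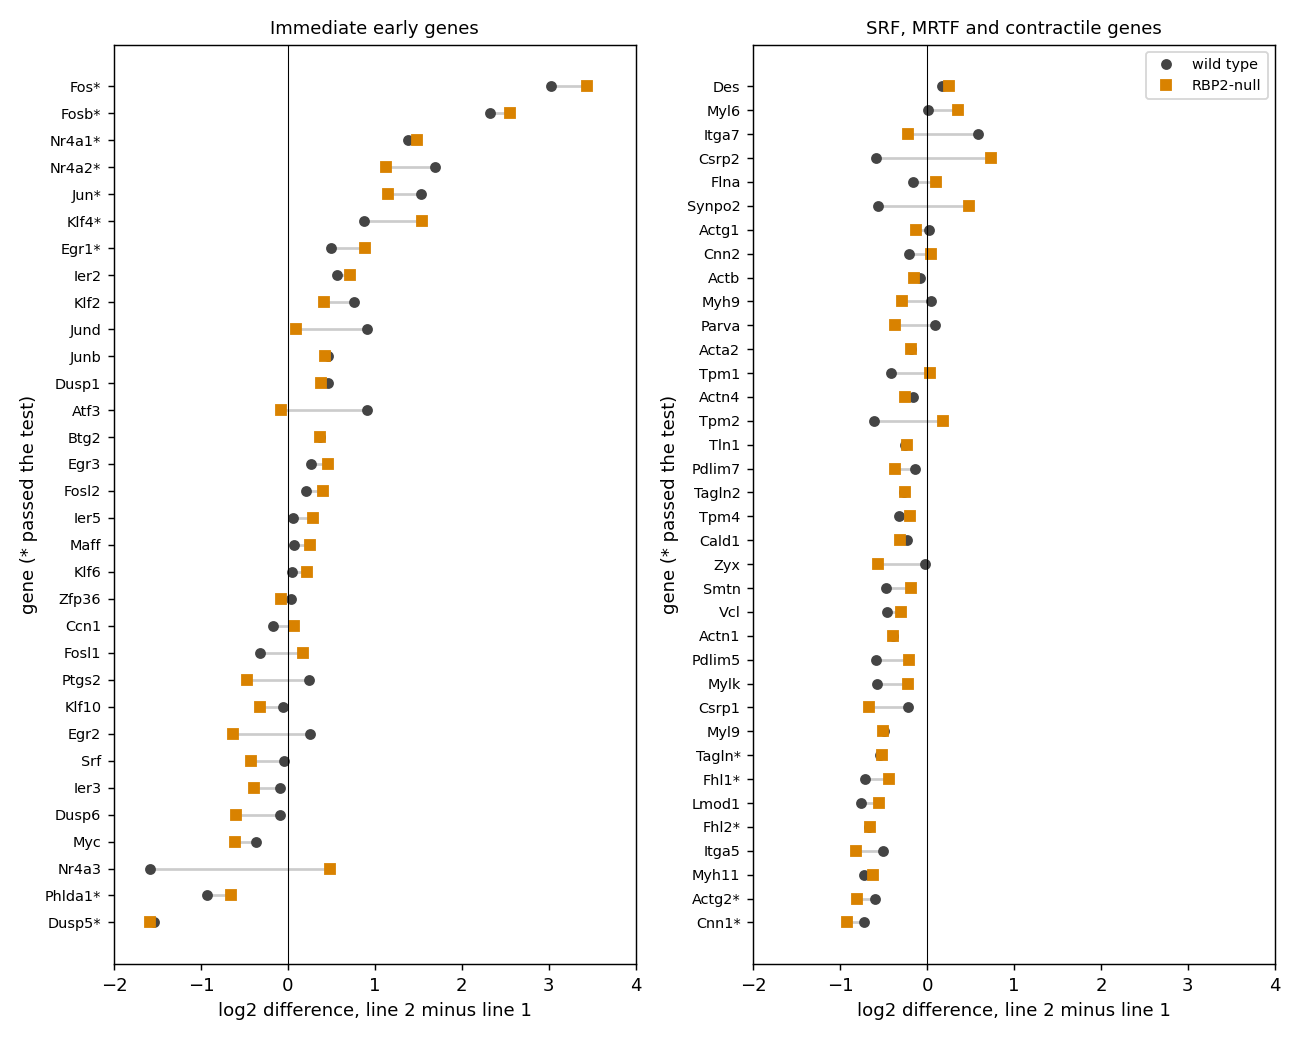
Log2 difference between line 2 and line 1 for every measured gene of the immediate early list (left, 32 genes) and of the contractile list (right, 36 genes), with circles for wild type, squares for RBP2-null and an asterisk on genes that passed the test. Fos, Fosb and Nr4a1 lie to the right of zero in both genotypes, and most contractile genes lie to the left of zero with both symbols close together.

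Promoter sequence is shown for genes of both groups, because a CArG box, the element bound by SRF, is a known feature of contractile and early genes alike. The windows come from RefSeq promoters of build GRCm38.p6, which run from 250 bases before to 50 after a gene's start. Capitals mark the CArG box in Acta1 (chr8:123894814-123894873, minus strand, first capital 73 bases before the start), in Fhl2 (chr1:43163962-43164017, minus strand, 31 bases before), in Fhl1 (chrX:56779556-56779615, plus strand, 102 bases before), in Myl9 (chr2:156775278-156775337, plus strand, 161 bases before) and in Actg1 (chr11:120348551-120348610, minus strand, 90 bases before). In Fos (chr12:85473799-85473854, plus strand) they mark TGACGT, part of the cyclic AMP response element, 66 to 61 bases before the start.
Acta1: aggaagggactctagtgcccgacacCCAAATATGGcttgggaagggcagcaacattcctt
Fhl2: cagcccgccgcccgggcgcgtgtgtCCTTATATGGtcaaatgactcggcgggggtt
Fhl1: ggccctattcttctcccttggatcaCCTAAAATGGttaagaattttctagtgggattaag
Myl9: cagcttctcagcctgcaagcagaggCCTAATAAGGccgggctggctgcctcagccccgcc
Actg1: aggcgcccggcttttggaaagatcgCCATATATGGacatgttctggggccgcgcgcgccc
Fos: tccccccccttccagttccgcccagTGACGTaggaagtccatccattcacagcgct

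Genes with the element were found both among those that passed and among those that did not. Acta1, Fhl1 and Fhl2 were called lower and hold a box, Myl9 missed the threshold with one, and Actg1 holds one while its levels on the 4 arrays lay within 13.16 to 13.28. A CArG box, searched on both strands, was found for 7 of the 29 contractile genes with a promoter entry and 4 of 25 immediate early genes, against 1.62% of all 27025 genes. Those 7 were Actg1, Cnn2, Fhl1, Fhl2, Myl6, Myl9 and Vcl. Cnn1, Tagln and Actg2, which were called lower, were not among them, and Acta1 belongs to the skeletal muscle list. The 4 early genes were Egr2, Srf, Zfp36 and Dusp5, the last of which was called lower. TGACGT, searched on both strands, was found for 9 of 25 immediate early genes and 2 of 29 contractile genes, against 7.29% of all genes. A match is a description of these letters, and a gene without one lacks it in this window only.

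**Figure D3:**
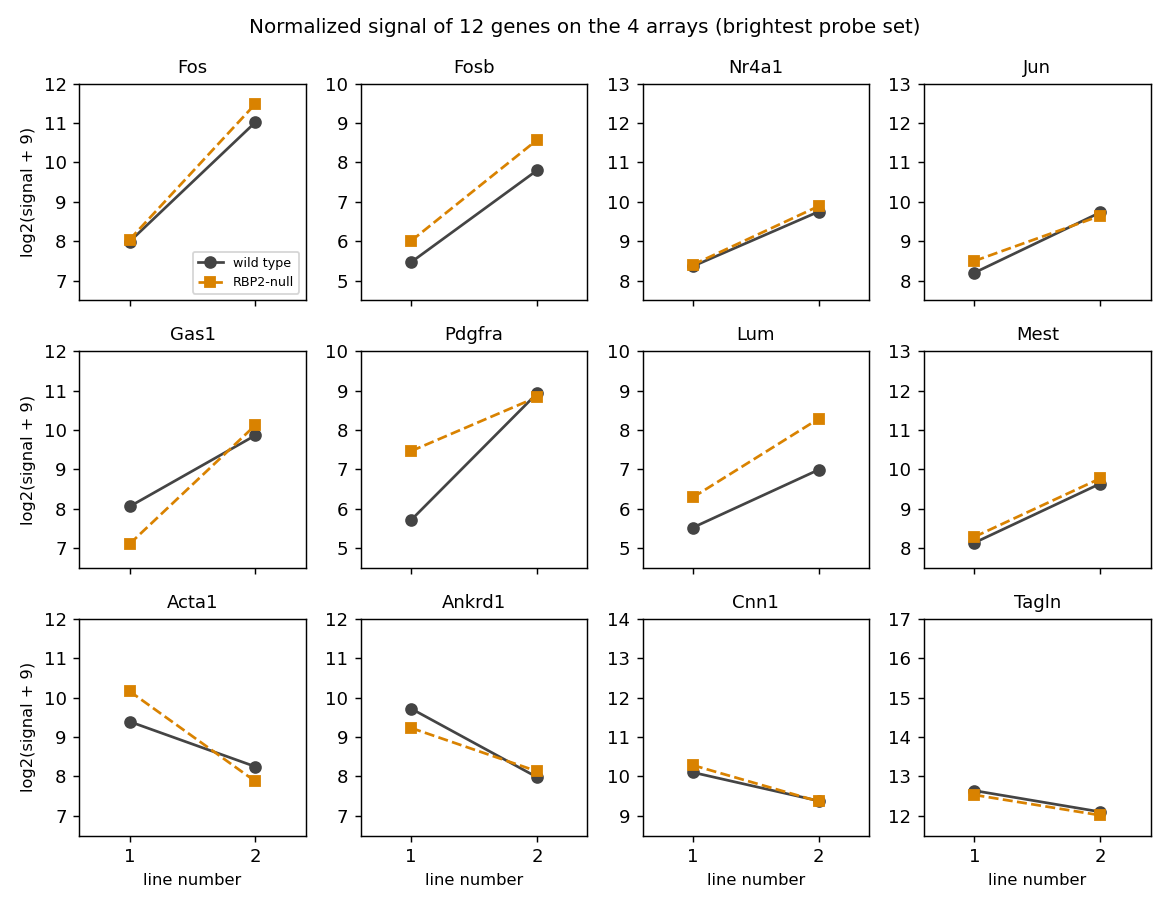
Normalized log2(signal + 9) of 12 genes against line number, 1 point per array, with circles and solid lines for wild type and squares and dashed lines for RBP2-null; each vertical axis spans the same number of log2 units. The 8 genes from Fos to Mest slope upward in both genotypes and Acta1, Ankrd1, Cnn1 and Tagln slope downward in both.

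Genes of mesenchymal identity gave mostly higher calls in lines 2. Pdgfra, the receptor for platelet-derived growth factor A that marks mesenchymal fibroblasts, had levels of 5.72, 8.93, 7.47 and 8.84. Both lines 2 lay close together and above both lines 1, and the difference was 2.29 ± 0.26 (adjusted p = 5.26e-09), with 3.21 in wild type and 1.37 in RBP2-null. Dlk1, an imprinted transmembrane inhibitor of adipocyte differentiation, had levels of 7.21, 8.16, 7.61 and 9.53 and was higher by 1.44 ± 0.23 (adjusted p = 2.47e-05). The paired-type homeobox genes Prrx1 and Prrx2, factors of limb and craniofacial mesenchyme, were higher by 0.65 and 0.88, and all 5 probe sets of Prrx1 were higher. Foxf1, a forkhead factor of visceral mesenchyme and named after its values were seen, was lower by −0.97, with levels of 7.55, 6.43, 7.20 and 6.38. In all, 4 of 43 genes of this list were called higher and 1 lower, against 1.14% and 0.93% of all genes. Higher in both genotypes were 20 (46.5%, against 26.7% of all genes) and lower in both 7 (16.3%, against 29.7%). Thy1, a general fibroblast surface marker, had levels of 10.09, 10.64, 10.44 and 10.41 and did not pass.

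Collagen VI gave the calls with the smallest p among collagens. Col6a2 had levels of 9.54, 10.93, 9.12 and 10.72, with more than 1 log2 unit between the groups in each genotype, and was higher in lines 2 by 1.497 ± 0.17 (adjusted p = 3.7e-09). Col6a1, whose chain assembles with that of Col6a2, had levels of 9.72, 10.75, 9.35 and 10.43 and was higher by 1.06 ± 0.17 (adjusted p = 2.35e-05). Col6a3, given after its values were seen, differed by 0.57, so these 3 chains of the microfibrillar collagen were all called. Col3a1, a fibrillar collagen of loose connective tissue, was higher by 0.67, with levels of 11.79, 12.56, 12.00 and 12.57. Col4a1, a basement membrane collagen, was lower by −0.64 ± 0.15 (adjusted p = 0.00966), with levels of 11.49, 10.96, 11.25 and 10.50. The chains of collagen I did not pass, Col1a1 having levels of 12.76, 12.83, 12.73 and 12.60 and Col1a2 13.01, 13.01, 12.77 and 12.88. Over 29 collagen genes 5 were called higher and 1 lower, against 1.14% and 0.93% of all genes. The median difference, however, was 0.24 in wild type and −0.09 in RBP2-null, so the list as a whole had no common direction.

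Matrix glycoproteins and proteoglycans gave 8 calls in limma, all higher, among 51 measured genes (15.7%, where 1.14% of all genes were called higher). At an unadjusted p under 0.05 there were 12 higher and 8 lower, against 6.31% and 5.47% of all genes. Efemp1, the elastic-fibre glycoprotein fibulin-3, had levels of 7.28, 9.05, 8.98 and 10.16, and here wild-type line 2 and RBP2-null line 1 were nearly level although both genotypes differed in the same direction (1.48 ± 0.20, adjusted p = 4.86e-07). Lumican (Lum), a proteoglycan that organises collagen fibrils, had levels of 5.52, 6.99, 6.29 and 8.29 and was 3.32-fold higher (1.73 ± 0.29, adjusted p = 5.47e-05). The microfibril protein Mfap4 had levels of 3.89, 7.02, 4.10 and 5.84, close to the floor in both lines 1, and was higher by 2.44 ± 0.50 (adjusted p = 0.00142). Matrilin 2 (Matn2) was higher by 1.26, with 1.84 in wild type and 0.67 in RBP2-null, while its other kept probe set differed by −0.05. The list was not shifted as a whole, with 19 genes (37.3%, against 26.7% of all genes) higher in both genotypes and 16 (31.4%, against 29.7%) lower in both. Mmp2, the gelatinase A protease, had levels of 9.68, 7.95, 8.60 and 8.68 and was called lower by −0.83, although the RBP2-null lines differed by 0.08 in the other direction.

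TGF-beta response genes did not share a direction. Tgfbi, a secreted adhesion protein named for its induction by TGF-beta, had levels of 7.02, 8.80, 6.93 and 9.51 and was 4.53-fold higher in lines 2 (2.18 ± 0.23, adjusted p = 4.86e-10). All 4 of its kept probe sets were higher. Cthrc1, a secreted collagen-domain protein of activated fibroblasts, had levels of 9.29, 10.44, 9.48 and 10.38 and was higher by 1.02 ± 0.17 (adjusted p = 7.23e-05). Ccn2, which is on this list too, was lower as given above. Of 25 genes 7 (28%, against 26.7% of all genes) were higher in both genotypes and 13 (52%, against 29.7%) lower in both.

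Growth-arrest and growth-factor genes gave mostly higher calls in lines 2. Gas1, a surface protein first found in serum-starved fibroblasts and a Hedgehog co-receptor, had levels of 8.06, 9.87, 7.11 and 10.12. The lines of number 2 lay near 10 and the others near 7 and 8, a difference of 2.41 ± 0.21 (adjusted p = 7.54e-13) or 5.32-fold. Gas2, a cytoskeletal protein of arrested cells, was higher by 1.29, with levels of 7.83, 8.84, 8.15 and 9.72, and by 0.09 on its other kept probe set. The rest of the quiescence list gave no call. Of its 21 genes 8 (38.1%, against 26.7% of all genes) were higher in both genotypes and 3 (14.3%, against 29.7%) lower in both. Pleiotrophin (Ptn), a heparin-binding growth factor, had levels of 9.80, 11.18, 10.59 and 11.70 and was higher by 1.24 ± 0.16 (adjusted p = 5.94e-08). Among the binding proteins of insulin-like growth factors, Igfbp4 was higher by 1.24 on its brightest probe set and called on 6 of 6, and Igfbp5 was higher by 1.46, with levels of 8.04, 10.07, 8.06 and 8.95. Igfbp7, which binds these factors weakly, was lower by −0.59, with levels of 11.40, 10.86, 11.12 and 10.47. Igf2, the fetal growth factor itself and named after its values were seen, differed by 0.55. Of the 34 genes on this list 5 were called higher and 1 lower, against 1.14% and 0.93% of all genes.

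Imprinted genes called in limma were all higher. At an unadjusted p under 0.05 there were 8 higher and 4 lower, against 6.31% and 5.47% of all genes. Mest, which is expressed from the paternal copy and enriched in mesenchyme, had levels of 8.14, 9.64, 8.29 and 9.77. Its difference was 1.499 in wild type and 1.48 in RBP2-null (1.49 ± 0.20, adjusted p = 1.7e-07), 2.81-fold on average. Rian, a maternally expressed non-coding RNA of the same cluster as Dlk1, was higher by 0.83, with levels of 8.27, 9.46, 8.19 and 8.67. With Dlk1 and Igf2 these were 4 of 29 genes (13.8%, where 1.14% of all genes were called higher). The list was not shifted, with 10 (34.5%, against 26.7% of all genes) higher in both genotypes and 12 (41.4%, against 29.7%) lower in both.

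Retinoid-binding and Wnt-modulating genes added further calls. Crabp1, the cytoplasmic carrier of retinoic acid, had levels of 8.07, 10.05, 8.75 and 10.03, with both lines 2 near 10, and was 3.1-fold higher (1.63 ± 0.19, adjusted p = 1.22e-08). Crabp2, which delivers retinoic acid to its nuclear receptor, had levels of 7.45, 9.18, 7.65 and 8.85 and was higher by 1.47 ± 0.22 (adjusted p = 5.14e-06). Sfrp2, a secreted Wnt modulator of mesenchyme, had levels of 4.95, 6.60, 5.89 and 7.97 and was 3.64-fold higher (1.87 ± 0.32, adjusted p = 9.07e-05). Fzd1, a Wnt receptor, differed by 0.75, and Id2, an inhibitor of basic helix-loop-helix factors, by 1.24, with levels of 6.04, 6.78, 6.21 and 7.95. Called higher were 2 of 19 prostaglandin and retinoid genes, 2 of 29 Wnt genes and 1 of 23 BMP and Id genes. None was called lower, against 1.14% and 0.93% of all genes. Higher in both genotypes were 7, 8 and 6 of these lists (36.8%, 27.6% and 26.1%, against 26.7% of all genes). Lower in both were 2, 9 and 6 (10.5%, 31% and 26.1%, against 29.7%). Hox genes, which record the position of cells along the body axis, gave calls in both directions. Hoxc6 was lower by −1.16, with levels of 8.47, 6.71, 7.68 and 7.11, Hoxb2 lower by −0.89 and Hoxd13, a gene of the distal limb, higher by 0.95, with levels of 6.96, 8.41, 8.08 and 8.53.

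Of 51 splicing factors 36 (70.6%, against 26.7% of all genes) were higher in both genotypes and 3 lower in both, and the median difference was 0.33 in wild type and 0.26 in RBP2-null. Called higher in limma were 5 and lower none, against 1.14% and 0.93% of all genes. At an unadjusted p under 0.05 there were 16 higher and 1 lower, against 6.31% and 5.47% of all genes. Hnrnpd, an RNA-binding protein that also controls mRNA decay, had levels of 8.56, 9.32, 8.51 and 9.54 and was higher by 0.89 ± 0.20 (adjusted p = 0.00362). Snrpe, a core protein of spliceosomal particles, had levels of 9.64, 10.52, 10.34 and 10.86 (0.70 ± 0.17, adjusted p = 0.00894), and Srsf5, a serine- and arginine-rich splicing regulator, differed by 0.62. Malat1, a nuclear non-coding RNA found with splicing factors, was among the largest differences, with levels of 6.24, 8.37, 6.64 and 8.83. On that probe set, the one with its smallest p, it was higher by 2.16 ± 0.25 (adjusted p = 5.26e-09), and on its brightest by 1.40. All 7 of its kept probe sets were higher, 4 of them called.

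Ribosome biogenesis was the 1 list with a higher median by the size set for describing a shift, 0.3 on the fitted difference with both genotypes on the same side. Its median was 0.34, with 0.27 in wild type and 0.26 in RBP2-null. Higher in both genotypes were 28 of 43 genes (65.1%, against 26.7% of all genes), and lower in both 6 (14%, against 29.7%). Only Gar1, a protein of the pseudouridylation particle, was called higher, with levels of 7.62, 8.19, 7.28 and 8.53. Nop10, which sits in the same particle, was called lower, by −0.59, with levels of 11.38, 10.85, 11.17 and 10.52. Among members named after their values were seen, Npm1 had levels of 11.39, 11.79, 11.41 and 11.92 and Nop56 7.43, 8.38, 7.62 and 8.21, and neither passed. Cytosolic ribosomal proteins, which the ribosome itself is made of, had a median difference of 0.06 in wild type and 0.09 in RBP2-null over 44 genes. Rps6 was the 1 call, where 1.14% of all genes were called higher. It differed by 0.88 on its brightest probe set and by −0.63 on its other.

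Cell-cycle lists held few calls, 3 of 45 E2F and S-phase genes and 3 of 47 mitosis genes, all higher, where 1.14% of all genes were called higher. Higher in both genotypes were 26 S-phase genes (57.8%) and 24 mitosis genes (51.1%), against 26.7% of all genes, and lower in both were 3 and 4, against 29.7%. Mcm5, a subunit of the replicative helicase, had levels of 8.12, 8.94, 8.30 and 9.06 and was higher by 0.79 ± 0.21 (adjusted p = 0.0223). Kif22, a chromosome-bound kinesin, had levels of 7.83, 8.997, 8.30 and 9.17 and was higher by 1.02 ± 0.21 (adjusted p = 0.00153). Kif23, a kinesin of the midbody, rested on wild type, with levels of 4.69, 7.03, 6.46 and 6.72. The same was true of the DNA polymerase alpha subunit Pola2, with levels of 3.88, 6.47, 6.45 and 6.63. Median differences were larger in wild type (0.31 for S phase and 0.36 for mitosis) than in RBP2-null (0.12 and 0.14), a gap that was not tested.

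**Figure D4:**
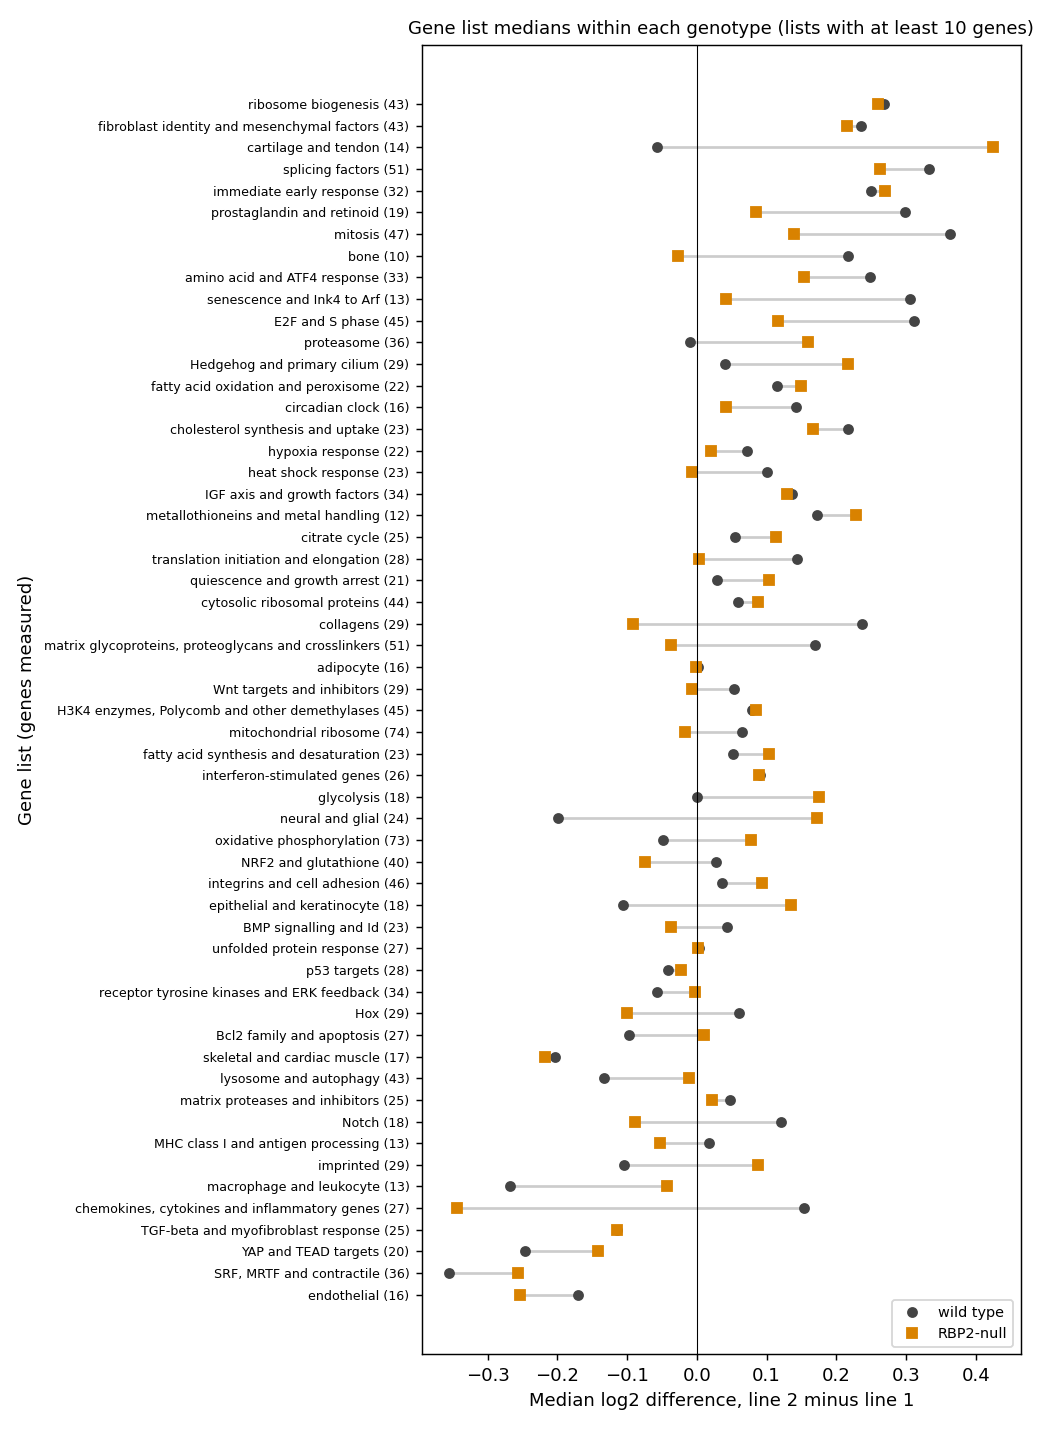
Median log2 difference between line 2 and line 1 of each gene list with at least 10 measured genes, circles for wild type and squares for RBP2-null, ordered by the median of the fitted difference, with the number of genes in brackets. Ribosome biogenesis, splicing, immediate early and fibroblast identity genes lie above zero in both genotypes and contractile, YAP and endothelial genes below zero in both, while the chemokine list has its 2 symbols on either side of zero.

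Metabolic and stress lists held few calls, and none had a median of the size set for a shift. Psat1, an enzyme of serine synthesis, had levels of 10.09, 11.11, 10.49 and 11.02 (0.77 ± 0.16, adjusted p = 0.00175), and Slc7a5, a transporter of large neutral amino acids, was higher by 0.72. These were the calls in the amino acid and ATF4 list. Higher in both genotypes were 16 of its 33 genes (48.5%, against 26.7% of all genes), and lower in both none, against 29.7%. Its median difference was 0.25 in wild type and 0.15 in RBP2-null. Gsta4, a glutathione transferase, was near the floor on 1 array, with levels of 3.77, 7.06, 5.97 and 7.29, and was higher by 2.31. Gsto1, another glutathione transferase, was lower by −0.66, with levels of 11.86, 11.34, 11.79 and 10.99, while its other kept probe set differed by 0.04. The small heat shock protein Hspb1, which binds actin filaments, had levels of 11.48, 10.52, 11.16 and 10.22 and was lower by −0.95 ± 0.15 (adjusted p = 2.95e-05), and both of its probe sets were called. The mitochondrial chaperone Hspa9 was higher by 0.77. Sdhd, a membrane subunit of respiratory complex II, was lower by −0.85, with levels of 10.01, 9.14, 9.89 and 9.05, while its other kept probe set differed by 0.07. Sdhd was 1 of 2 calls among 73 oxidative phosphorylation genes (2.74%), where 1.14% of all genes were called higher and 0.93% lower. Medians of that list were −0.05 and 0.08.

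On the brightest probe set of each gene, 22 lists held no called gene in limma, apart from the sex-linked list. Among the largest were mitochondrial ribosomal proteins (74 genes), H3K4 enzymes, Polycomb and other demethylases (45), proteasome (36), translation factors (28), the unfolded protein response (27), interferon-stimulated genes (26), the citrate cycle (25) and cholesterol synthesis (23). Of the 470 genes in the 22 lists 61 (13%) had an unadjusted p under 0.05, against 11.8% of all genes, and 6 had a call on another probe set. One of those 6 was Hmgcs1, an enzyme of cholesterol synthesis, with 4 of 4 probe sets higher and 3 called, while its brightest differed by 0.47 and did not pass. The median of the demethylase list was 0.08 in wild type and in RBP2-null.

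Inflammatory genes had calls in both directions. Cxcl1, a neutrophil chemokine that early-response signals also raise, had levels of 5.63, 7.88, 6.47 and 8.60 on the probe set with its smallest p and was higher by 2.19 ± 0.27 (adjusted p = 2.7e-08). On its brightest probe set the difference was 0.77, and all 3 were higher, 2 of them called. Il1rn, the interleukin 1 receptor antagonist, was higher by 1.09 on its brightest probe set, with levels of 5.98, 7.09, 6.42 and 7.50. Csf1, the growth factor of macrophages, was lower by −0.75 ± 0.17 (adjusted p = 0.00534), with levels of 10.58, 9.69, 10.19 and 9.57. Tnfaip3, a feedback inhibitor of NF-kappaB, was lower by −1.12, with levels of 7.26, 5.94, 7.11 and 6.18. The summed signal of 9 measured macrophage markers was 557, 422, 359 and 375, with Ptprc and Itgam below the pseudocount on average, and its part in these differences was not tested.

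The other genes among the 20 largest higher differences were a mixed set. Penk, the precursor of enkephalin peptides and made by embryonic mesenchyme, had levels of 5.23, 6.40, 5.76 and 8.68 (2.05 ± 0.32, adjusted p = 1.9e-05). Tbx4, a T-box factor of the hindlimb and lung mesenchyme, had levels of 5.68, 6.27, 3.72 and 7.27, so most of its difference of 2.07 came from RBP2-null. The LIM protein Pdlim4 had levels of 3.84, 6.46, 4.43 and 5.91, and the urea transporter gene Slc14a1 3.59, 5.42, 3.98 and 6.47, both near the floor in lines 1. For Ednrb, Zmynd19, Pcnt and Pip5k1c the called probe set was not the brightest of the gene, and the brightest differed by −0.01, −0.10, −0.39 and −0.13. Steap3 was called on 1 of 3 probe sets and differed by 0.51 on its brightest.

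On the lower side, Glipr1, a secreted or membrane protein of the cysteine-rich secretory family, had levels of 9.13, 7.35, 8.83 and 7.06. It was 3.43-fold lower in lines 2, by −1.78 ± 0.22 (adjusted p = 6.31e-08), and by almost the same amount in both genotypes. That was 1 of its 2 kept probe sets, and the other differed by −0.06. Lce1h, a gene of the late cornified envelope cluster, had levels of 8.71, 6.07, 9.21 and 7.21 (−2.32 ± 0.24, adjusted p = 2.51e-10), on a probe set of the kind that can bind related transcripts. Crct1, from the same region of cornified envelope genes on chromosome 3, differed by −1.68 and Cysrt1 by −1.72. Hipk2, a nuclear kinase, was lower on all 7 of its probe sets, 3 of them called, by −1.74 on the one with the smallest p and −0.92 on the brightest. Adcy5, an adenylyl cyclase, had levels of 7.08, 4.51, 6.13 and 4.39, and its 3 kept probe sets differed by −2.16 to 0.17. For Slfnl1, Sox14, Cpne2, 4930500F04Rik, Pcsk1n and Fam227a both lines 2 had levels between 3.45 and 4.75, close to the floor. Tbxas1, thromboxane synthase, had levels of 7.05, 3.99, 6.44 and 5.40, and Marchf10 7.84, 5.06, 6.27 and 5.27. Sv2a differed by −1.68, and Tmppe by −1.97 on its brightest probe set and 0.89 on its other. St13 and Rgmb differed by −0.31 and −0.01 on their brightest probe sets.

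Emcn, endomucin of venous and capillary endothelium, had levels of 6.30, 4.06, 6.57 and 4.94 and was lower by −1.93 ± 0.44 (adjusted p = 0.00518). It was the 1 call among 16 endothelial genes, where 0.93% of all genes were called lower. Of the 16, 9 (56.2%, against 29.7% of all genes) were lower in both genotypes and 3 (18.8%, against 26.7%) higher in both. The list median of −0.31 met the size set for a shift. The 6 fixed endothelial markers, Emcn among them, summed to 187, 158, 210 and 171, and Pecam1, a defining marker, was below the pseudocount on average. The hepatocyte list also reached a median of −0.31, but on 5 kept genes with none called, and none of its 4 defining markers passed the filter on low signal. Skeletal muscle markers summed to 296, 244, 273 and 280 and epithelial markers to 828, 616, 501 and 655, each in opposite directions in the 2 genotypes. Neural markers summed to 979, 1031, 910 and 1005 and adipocyte markers to 109, 144, 114 and 191, higher in lines 2 in both, with Pparg and Adipoq below the pseudocount on average. Stmn2, a tubulin-binding protein of neurons, was called higher, with levels of 6.56, 7.71, 6.13 and 7.90. It and Map2 were the 2 calls among 24 neural and glial genes, where 1.14% of all genes were called higher. Of the 24, 7 (29.2%, against 26.7% of all genes) were higher in both genotypes and 6 (25%, against 29.7%) lower in both. The median of that list had opposite signs in the 2 genotypes. The part of these cell types in the differences was not tested.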

How the data were processed

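Per the labels, total RNA was labelled with biotin and hybridized to 1 Affymetrix array per line. The deposited table gives 1 linear signal intensity per probe set. The probe summary, scaling and software are not given in the sources used here. Of 45101 probe sets 64 controls were left out, and intensities of the other 45037 were quantile normalized over the 4 arrays. Then 9 was added, log2 was taken, and the upper 60% by mean were kept (27022). Line number 2 minus 1 was fitted with genotype as a block in limma 3.58.1 under R 4.3.3 (lmFit, eBayes with a mean-dependent prior variance), two-sided, with Benjamini-Hochberg adjustment over all kept probe sets and a threshold of 0.05. Differences are on the log2(signal + 9) scale, which understates those of dim probe sets. The procedure was tested on simulated data.

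A platform annotation gave 1 symbol for 34945 probe sets, several for 932 and none for 9160, and the latter 2 kinds were not named. Entrez numbers of 34741 matched RefSeq. Lists used the brightest kept probe set of each of 13115 genes. The 60 gene lists (2012 symbols, 1837 with a named probe set) and the comparison itself were chosen with earlier results of these data known. Named genes are the 20 highest and 20 lowest called with one sign in both genotypes, on the called probe set with the smallest p, up to 4 called members per list (or, where none, up to 4 with the smallest p as values), and sex and Kdm5a transcripts. Alternatives changed the pseudocount, filter, scaling, variance model, block, threshold, fold, probe sets that can bind several transcripts, and each array left out.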

Additional observations from a re-analysis of the deposited data

Results flagged for a closer look

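Xist, Eif2s3y, Uty and Kdm5d moved in opposite directions in the 2 genotypes between line numbers. For Xist the wild-type difference minus the RBP2-null difference was −8.82 and −11.78 on its 2 probe sets. It was 7.40 for Eif2s3y, 5.49 and 5.02 for Uty, and 3.996 and 2.56 for Kdm5d. With 1 line per genotype and number these gaps were not tested.

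Opposite medians at least 0.1 from 0 in each genotype were found for 3 gene lists beside the sex-linked one, and other lists with opposite medians, such as collagens, were closer to 0 in one genotype. The median difference of chemokines, cytokines and inflammatory genes was 0.15 in wild type and −0.34 in RBP2-null, a gap of 0.498. Epithelial and keratinocyte genes had −0.11 and 0.14 (gap −0.241), and neural and glial genes −0.20 and 0.17 (gap −0.371). These gaps were not tested.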

How the results depend on the processing

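Signs of the 114 called probe sets of the 113 genes under the naming rule were compared across the alternatives, after removal of any common shift. Each held wherever it was tested, except that of Mmp2. Mmp2 differed by 0.076 without either wild-type line and by −1.73 without either RBP2-null line. With an array left out, the value is only the difference within the other genotype. The highest and lowest named genes were chosen for the same sign in both genotypes, and a call itself favours that. Signs that held with an array left out therefore add no separate support. Calls depended on the processing. Probe sets called in all, higher and lower were 547, 326 and 221 as reported. They were 89, 60 and 29 with no filter, 320, 198 and 122 with the upper 40% kept, 187, 112 and 75 with cyclic loess, and 863, 511 and 352 at an adjusted p of 0.10. A constant prior variance gave 0, 0 and 0, with 2013 at an unadjusted p under 0.05, and no genotype block gave 1, 1 and 0, the 1 being Fos. Centring on medians gave 599 higher and 63 lower (a common shift of 0.193 and 90.5% higher, against 59.6% as reported), and no scaling 11950, 11920 and 26 (a shift of 0.734 and 99.8% higher). Pseudocounts of 1 and 32 left the counts within 1.5 times. With one array left out and no block the calls ranged from 1 to 1223 in all, 1 to 855 higher and 0 to 368 lower. They were 1, that of Fos, without wild-type line 2 and without RBP2-null line 2, 209 (148 higher, 61 lower) without wild-type line 1 and 1223 without RBP2-null line 1. With the block, leaving out an array leaves no residual degree of freedom and no test.

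Probe sets at least 2-fold higher in both, lower in both and opposite were 200, 120 and 169. They were 322, 246 and 383 with a pseudocount of 1, 53, 27 and 26 with 32, 342, 262 and 421 with no filter, and 87, 44 and 43 with the upper 40%. At 1.5-fold they were 791, 652 and 884 and at 3-fold 31, 21 and 30. Higher in both were 124 with centring and 132 with no scaling, relative to the shift. One genotype alone gave 1092 to 1686 higher and 700 to 1281 lower.

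Of these 114 probe sets 34 passed under every setting of the signal and filter in which they were tested, among them those of Fos, Fosb, Nr4a1, Gas1, Pdgfra, Col6a2, Mest, Acta1, Ankrd1 and Dusp5. Genes named after their values were seen, such as Jun and Klf4, were not covered. Among the lists with the largest medians, with every array kept, only that of bone crossed 0, in 2 settings (−0.38 to 0.24). The others stayed on their side. They included contractile genes at −0.32 to −0.23, ribosome biogenesis at 0.30 to 0.41 and splicing at 0.24 to 0.35. Immediate early genes were at 0.23 to 0.33, endothelial genes at −0.43 to −0.14 and YAP targets at −0.21 to −0.10. The hepatocyte list had no value with the upper 40%. No paired analysis was possible because the replicate number is itself the compared factor. With 1 array per line the precision is limited throughout, and dim probe sets shared few differences between genotypes.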

Other observations

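Over all chromosomes, sex-linked genes included, 169 probe sets moved at least 2-fold in opposite directions in the 2 genotypes, 68 of them higher in wild-type line 2 and lower in RBP2-null line 2 and 101 the reverse. They named 123 genes. The widest on an autosome, chosen after their values were seen, was E2f5, a repressive member of the E2F family, with levels of 9.94, 6.80, 4.82 and 9.01 on 1 probe set. Grip2 had levels of 4.28, 6.66, 6.57 and 3.97, and Top3b 7.66, 5.48, 3.98 and 7.05.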
